A study of Mus musculus with 19 samples.

Results

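A set of 10 genes through which a cell senses bacterial products in its cytosol was followed across lavage cells of mice: the inflammasome sensors Nlrp3, Nlrc4, Aim2 and Nlrp1b, the adaptor Pycard, the caspases Casp1 and Casp4, the pore former Gsdmd, and the peptidoglycan receptors Nod1 and Nod2. They were chosen by symbol, each matched 1 row, and they are 10 of the 56941 genes in the deposited tables. All 10 passed the filter on low counts, as did 20501 genes in all. The samples were cell pellets from bronchoalveolar lavage, the rinsing of the lung's airspaces, which the labels call primary alveolar macrophages, with no sort or gate described. All mice were females aged 7 to 8 weeks. Naive mice were C57Bl/6J wild type (n = 4) or ICAM-1 null (n = 5), and exposed mice were wild type (n = 5) or null (n = 5). Exposure meant aspiration of 100 µL of Staphylococcus aureus bioparticles (2.27 mg/mL, labelled with the acid-sensitive dye pHrodo) through the oropharynx under isoflurane, with lavage 1 h later. The sources used here do not give the genetic background of the null line, any mock treatment of naive mice, or whether lavages were pooled. The p-values thus measure the spread between these libraries, and an effect of ICAM-1 and one of the line's background cannot be told apart. Nor can an effect of the bioparticles be told apart from one of the aspiration or the isoflurane.

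Inflammasomes are cytosolic complexes in which a sensor, often through the adaptor ASC, encoded by Pycard, activates caspase-1. Caspase-1 matures IL-1beta and IL-18 and cleaves gasdermin D, whose fragments form pores in the plasma membrane, while mouse caspase-11, encoded by Casp4, binds lipopolysaccharide and cleaves gasdermin D directly. NOD1 and NOD2 recognise fragments of peptidoglycan, the wall polymer of bacteria such as S. aureus, and signal through the kinase RIPK2 to NF-kappaB. In macrophages NLRP3 is the sensor best known for needing a priming step, a rise of its own transcript after another signal such as a Toll-like receptor ligand, before it can assemble. Transcript levels do not show assembly, cleavage or pore formation, none of which was measured here.

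Levels are given as TPM, an abundance corrected for gene length and scaled to a common sum in every library, with the SD. Changes are log2 fold changes from edgeR's quasi-likelihood test on estimated counts with TMM scaling, with their standard error (SE) and a Benjamini-Hochberg adjusted p over 20501 genes, and a gene rose, fell or differed where this value was under 0.05. Total estimated counts per library were 32.8 to 80.3 M. Icam1, the targeted gene, checks the labels. It was 63.8 to 85.9 TPM in wild type naive, 722 to 1079 TPM in wild type exposed, 4.88 to 11.5 TPM in null naive and 9.48 to 13.2 TPM in null exposed libraries, and no null library reached a wild type one. The 2 scales differ on exposure: the median gene changed by 0.02 in wild type in edgeR, but by -0.22 on log2(TPM + 1) in limma, and by 0.02 and -0.19 in null mice. The share of called genes that were higher went with it, from 49.9% to 21.1% in wild type and from 47.8% to 21.0% in null mice. Changes below are relative to edgeR's scaling, and a member whose direction turns on log2(TPM + 1) is given on both scales.

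In wild type mice 3 of the 10 genes rose 1 h after the bioparticles (Nlrp3, Casp4 and Nod2), 3 fell (Pycard, Gsdmd and Nlrp1b) and 4 did not pass the test (Nlrc4, Aim2, Casp1 and Nod1). Of all genes tested, 40.2% were called in this comparison, 20.1% higher and 20.2% lower. In ICAM-1 null mice the same 3 rose and the same 3 fell, Nlrc4 was also called higher, and 44.8% of all genes were called, 21.4% higher and 23.4% lower. The median change of the 10 genes was 0.02 in wild type and 0.04 in null mice, beside 0.02 in each for all genes. On log2(TPM + 1), limma called the same 3 higher in each genotype, and it called 6 lower in wild type (adding Aim2, Nod1 and Nlrc4) and 5 in null mice (adding Aim2 and Nod1). Of all genes it called 11.0% higher and 41.0% lower in wild type, and 10.9% and 41.0% in null mice. In lavage pellets, fewer cells of a type and less RNA per cell cannot be told apart, and this holds for every change below. In TPM, 8 of the 10 genes had exposed and naive libraries that did not overlap, in each genotype, 3 of them above and 5 below. Among all genes 8.20% lay wholly above and 32.0% wholly below in wild type, and 8.00% and 32.7% in null mice.

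**Figure D1:**
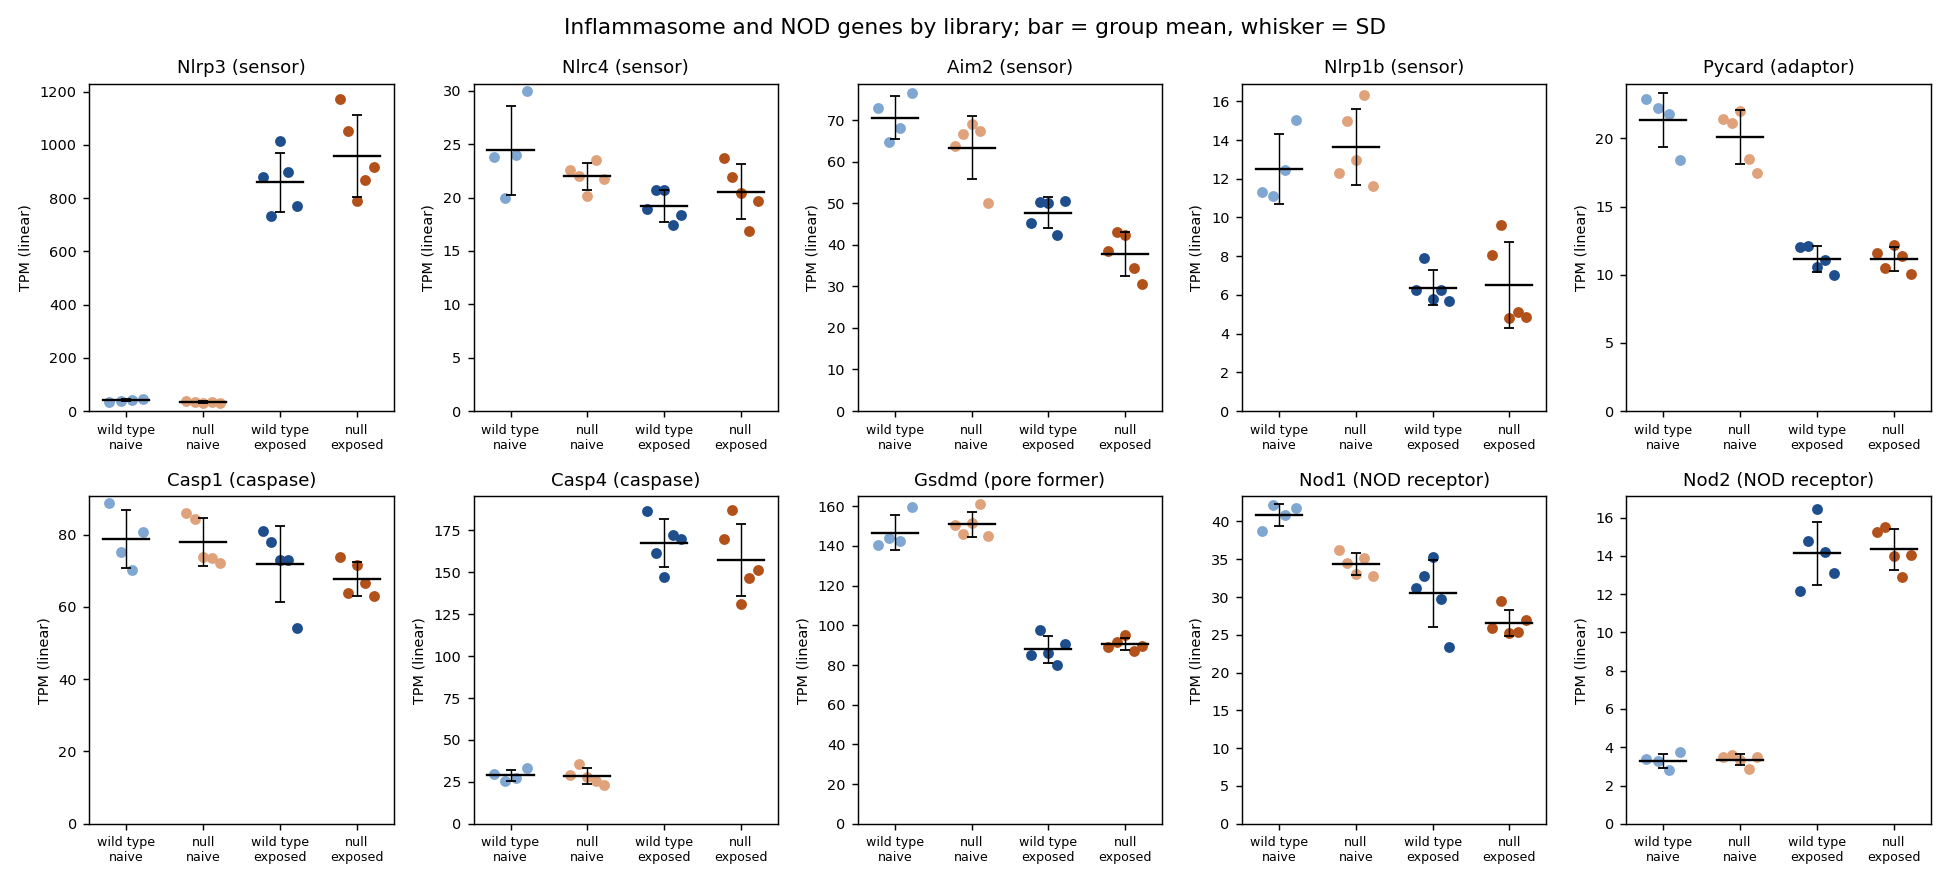
TPM (linear axis from 0) of the 10 genes in each of the 19 libraries, with 1 point per library, a bar at the group mean and a whisker of 1 SD. Nlrp3, Casp4 and Nod2 are higher in every exposed library, whereas Pycard, Gsdmd, Nlrp1b, Aim2 and Nod1 are lower in every exposed library than in every naive one of the same genotype on this scale.

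The sequence before the start site is shown for the 3 genes that rose and for Casp1, which neighbours Casp4 and did not pass the test. Each run is the 250 bases upstream of a RefSeq start, 5′ to 3′ on the gene's strand, in build GRCm38.p6. All 4 lie on the plus strand. Capitals mark matches to the kappaB consensus, the site bound by NF-kappaB, on either strand.
Nlrp3, chr11:59541319-59541568: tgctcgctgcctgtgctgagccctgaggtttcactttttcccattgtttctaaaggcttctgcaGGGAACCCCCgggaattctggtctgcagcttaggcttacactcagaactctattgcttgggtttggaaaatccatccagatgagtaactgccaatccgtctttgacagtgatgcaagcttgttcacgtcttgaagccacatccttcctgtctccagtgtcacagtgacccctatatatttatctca
Casp4, chr9:5308599-5308848: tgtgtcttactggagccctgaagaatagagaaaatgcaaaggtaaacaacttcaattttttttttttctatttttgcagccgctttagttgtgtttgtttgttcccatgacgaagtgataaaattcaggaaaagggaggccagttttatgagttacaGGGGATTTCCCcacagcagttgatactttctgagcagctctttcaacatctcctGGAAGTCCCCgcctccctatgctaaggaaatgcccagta
Nod2, chr8:88647097-88647346: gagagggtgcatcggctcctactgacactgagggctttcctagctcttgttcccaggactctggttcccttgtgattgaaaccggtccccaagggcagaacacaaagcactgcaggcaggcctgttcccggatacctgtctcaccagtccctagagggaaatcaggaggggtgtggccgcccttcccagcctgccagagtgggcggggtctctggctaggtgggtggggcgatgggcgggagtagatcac
Casp1, chr9:5298267-5298516: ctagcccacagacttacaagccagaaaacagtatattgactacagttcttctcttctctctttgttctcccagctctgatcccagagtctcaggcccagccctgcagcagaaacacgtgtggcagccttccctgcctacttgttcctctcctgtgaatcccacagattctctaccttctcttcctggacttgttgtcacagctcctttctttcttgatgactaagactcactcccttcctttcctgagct
The Nlrp3 match lies 186 to 177 bases before the start, and a further Nlrp3 start in the table, chr11:59542436-59542685, has none. Casp4 holds an overlapping pair, 93 to 84 and 92 to 83 bases before the start, and another match at 39 to 30 bases. The windows shown for Nod2 and Casp1 hold no match to it. The table gave windows for 9 of the 10 genes, at 13 starts, and the kappaB consensus matched in 2 of the 9 genes, beside 7.25% of 32851 promoters of the same length. For every motif here a gene counts as matched at any of its starts, while the promoters are counted by start. A gene with several starts thus has more chances to match. The other motifs searched, also on both strands, were 5. AP-1 (TGANTCA), CRE (TGACGTCA) and ISRE, the interferon-stimulated response element, matched in 0 of the 9 genes, beside 6.75%, 1.55% and 2.98% of promoters. GAS (TTCNNNGAA) matched in 1, Nod1, beside 7.02%. ETS/PU.1 (GAGGAAGT) matched in 3, Aim2, Pycard and Nlrp1b, beside 2.44%. A match is a description of the letters and was not tested as a binding site.

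Nlrp3, on chr11:59432394-59457782 (build GRCm39, plus strand), encodes the sensor of ion flux and membrane damage. In wild type naive libraries 1 to 4 it was 35.0, 39.0, 42.3 and 43.6 TPM, and in null naive libraries 1 to 5 it was 38.0, 32.5, 30.1, 34.7 and 30.6 TPM. In wild type exposed libraries 1 to 5 it was 877, 734, 1016, 898 and 772 TPM, and in null exposed libraries 1173, 1052, 787, 866 and 916 TPM. The lowest exposed library lay far above the highest naive one in each genotype, while the genotypes overlapped within each state. The mean went from 40.0 ± 3.84 to 859 ± 111 TPM in wild type and from 33.2 ± 3.24 to 959 ± 153 TPM in null mice. In edgeR the log2 fold change of Nlrp3 was 4.78 (SE 0.13, adjusted p = 1.1e-16), or a rise of 27.5-fold, in wild type, and 5.19 (SE 0.12, adjusted p = 6.1e-18), or 36.5-fold, in null mice. It ranked 288th and 167th of 20501 genes by log2 fold change. Nlrp3 made up 7.49 to 9.36% of the summed TPM of the 10 genes in wild type naive libraries and 60.7 to 69.5% in wild type exposed ones, and 6.78 to 8.19% and 65.4 to 72.0% in null mice.

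Nlrp1b, on chr11:71043928-71121559 (minus strand), encodes a sensor cleaved by microbial proteases. It was 11.3, 11.1, 12.4 and 15.1 TPM in wild type naive and 12.3, 14.998, 12.99, 16.3 and 11.6 TPM in null naive libraries. Exposed libraries held 6.24, 7.93, 5.81, 6.24 and 5.67 TPM in wild type and 8.07, 9.64, 4.83, 5.10 and 4.86 TPM in null libraries. Every exposed library lay below every naive one of its genotype, and the null exposed libraries split into 2 at or above 8.07 and 3 at or below 5.10 TPM. Nlrp1b fell by 0.61 (SE 0.19, adjusted p = 0.013) in wild type mice and by 0.70 (SE 0.18, adjusted p = 0.0026) in null mice in edgeR. The wild type call was lost without wild type naive library 4, where the change was -0.50 (adjusted p = 0.058). Nlrp1a, a near-identical neighbour at chr11:70983062-71035530, may share reads with it, and its value on the list below is as uncertain.

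Aim2, on chr1:173178445-173293606 (plus strand), encodes a sensor of cytosolic DNA. It was 72.8, 64.8, 68.1 and 76.5 TPM in wild type naive and 63.8, 66.7, 69.0, 67.3 and 50.1 TPM in null naive libraries. In exposed mice it was 45.3, 50.2, 50.1, 42.5 and 50.5 TPM in wild type and 38.6, 43.1, 42.3, 34.4 and 30.6 TPM in null libraries, all below the naive libraries of the same genotype. The edgeR change was -0.00 (SE 0.11, adjusted p = 0.99) in wild type mice and -0.25 (SE 0.10, adjusted p = 0.053) in null mice. On log2(TPM + 1) it was -0.56 (limma adjusted p = 1.3e-04) and -0.73 (limma adjusted p = 2.1e-06), so whether Aim2 fell depended on the scale. In null mice edgeR also called it lower without any 1 of 6 libraries, wild type naive 4, wild type exposed 3 or 5, null naive 5, and null exposed 2 or 3, the lowest adjusted p being 0.0064 without null naive 5.

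Nlrc4, on chr17:74732433-74766137 (minus strand), encodes the partner of the NAIP receptors for flagellin and secretion-system proteins. It was 19.9 to 30.0 TPM in wild type naive, 20.1 to 23.5 TPM in null naive, 17.4 to 20.7 TPM in wild type exposed and 16.8 to 23.7 TPM in null exposed libraries, and the states overlapped in each genotype. The edgeR change was 0.04 (SE 0.10, adjusted p = 0.80) in wild type mice and 0.26 (SE 0.09, adjusted p = 0.028) in null mice, but on log2(TPM + 1) it was -0.32 (limma adjusted p = 0.014) and -0.10 (limma adjusted p = 0.42), so its direction turned with the scale. The null call was lost without null naive 3 or 5 or null exposed 1 or 2, with adjusted p of 0.059 to 0.077. A processed pseudogene inside Nlrc4 on the same strand, Gm4708, held 4.31 to 7.41 TPM as group means, and reads may be shared between them.

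**Figure D2:**
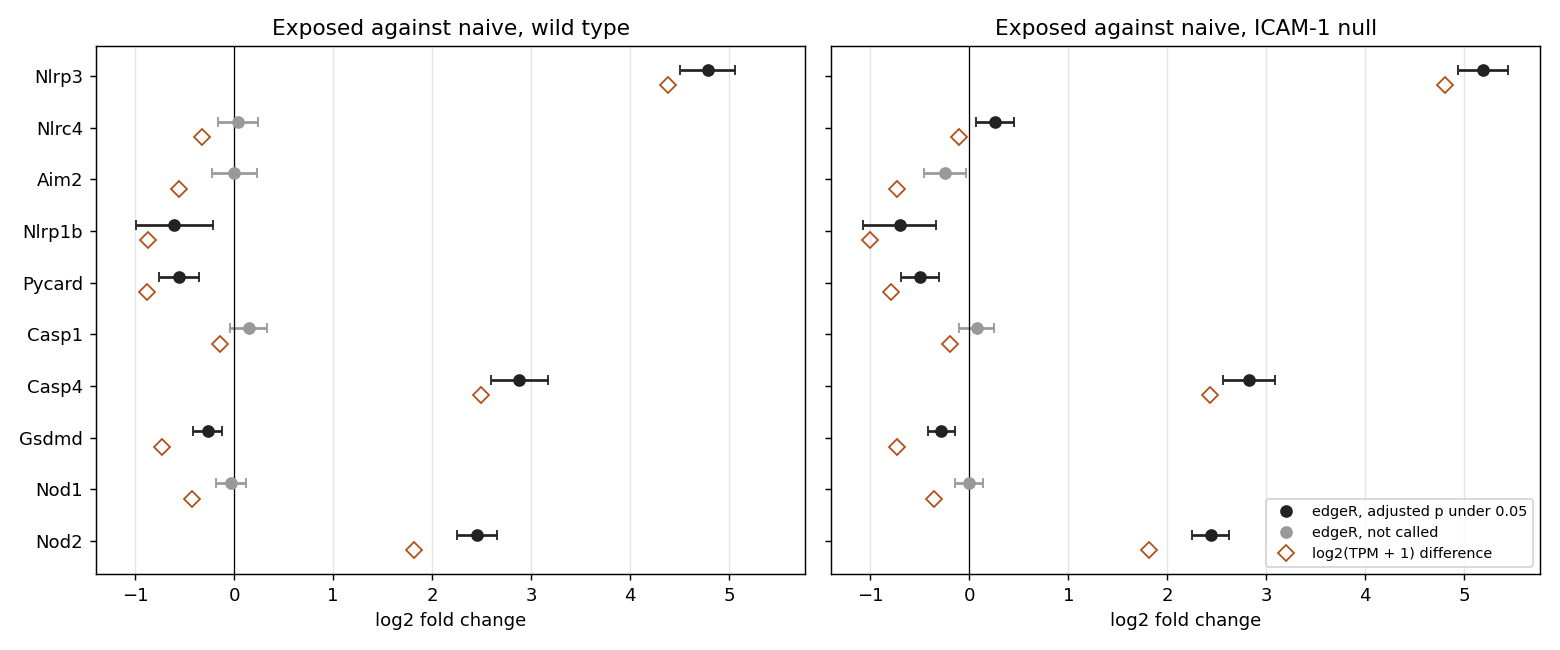
Log2 fold change, exposed against naive, of the 10 genes in wild type (left) and ICAM-1 null mice (right): filled circles with 95% intervals are edgeR, black where the adjusted p is under 0.05 and grey where not, and open diamonds are the difference in log2(TPM + 1). Nlrp3, Casp4 and Nod2 lie above 1.5 on both scales, and the diamonds lie left of the circles for every gene.

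Pycard, on chr7:127588880-127593039 (minus strand), encodes ASC, which links NLRP3 and AIM2 to caspase-1. It was 22.9, 22.3, 21.8 and 18.4 TPM in wild type naive and 21.4, 21.1, 21.98, 18.5 and 17.5 TPM in null naive libraries. After exposure it was 12.02, 12.1, 10.5, 11.04 and 9.96 TPM in wild type and 11.6, 10.5, 12.2, 11.4 and 10.02 TPM in null libraries. No exposed library reached a naive one, and the genotype means were 11.1 TPM in both exposed groups. Pycard fell by 0.56 (SE 0.10, adjusted p = 7.8e-05) in wild type mice and by 0.50 (SE 0.09, adjusted p = 1.1e-04) in null mice in edgeR, and by 0.88 and 0.79 on log2(TPM + 1). Without wild type naive libraries 1, 2 and 3 together, which have the lowest totals and leave 1 library in that group, the wild type change was -0.37 (adjusted p = 0.11).

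Casp1 and Casp4 lie in a row on the plus strand of chromosome 9, at chr9:5298508-5307290 and chr9:5308828-5336783, with 1537 bases between them. Casp4 was 29.8, 25.7, 27.1 and 33.01 TPM in wild type naive and 29.4, 35.6, 28.0, 25.8 and 23.2 TPM in null naive libraries. After exposure it was 187, 162, 147, 172 and 169.9 TPM in wild type and 169.9, 187, 131, 147 and 151 TPM in null libraries, each above every naive library. Casp4 rose by 2.88 (SE 0.14, adjusted p = 4.6e-13), or 7.37-fold, in wild type and by 2.83 (SE 0.13, adjusted p = 9.1e-14), or 7.09-fold, in null mice in edgeR. Casp1 was 70.2 to 88.9 TPM in wild type naive, 72.2 to 85.9 TPM in null naive, 54.1 to 81.0 TPM in wild type exposed and 63.0 to 73.7 TPM in null exposed libraries, and naive and exposed libraries overlapped. Its edgeR change was 0.15 (SE 0.09, adjusted p = 0.22) in wild type mice and 0.07 (SE 0.09, adjusted p = 0.52) in null mice, with 95% intervals of -0.04 to 0.34 and -0.10 to 0.25. On log2(TPM + 1) Casp1 lay on the other side of 0, at -0.14 (limma adjusted p = 0.25) and -0.20 (limma adjusted p = 0.087), and did not pass either.

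Gsdmd, on chr15:75734176-75739257 (plus strand), encodes the pore-forming protein gasdermin D. It was 141, 144, 142 and 159.8 TPM in wild type naive and 151, 146, 152, 161 and 145 TPM in null naive libraries. Exposed libraries held 84.8, 97.8, 86.2, 79.96 and 90.6 TPM in wild type and 89.3, 91.8, 94.97, 86.9 and 89.5 TPM in null libraries. All exposed libraries lay below all naive ones. Gsdmd fell by 0.27 (SE 0.07, adjusted p = 0.0033) in wild type mice and by 0.28 (SE 0.07, adjusted p = 0.0011) in null mice in edgeR, and by 0.73 in each genotype on log2(TPM + 1). It varied least of the 10 genes between null libraries, with a coefficient of variation of 4.14% in naive and 3.36% in exposed ones, against 34.2% for Nlrp1b in the exposed ones.

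Nod2, on chr8:89373943-89415102 (plus strand), encodes the receptor for muramyl dipeptide, a unit common to most bacterial walls. It was 3.38, 3.26, 2.81 and 3.73 TPM in wild type naive and 3.48, 3.57, 3.34, 2.87 and 3.48 TPM in null naive libraries. After exposure it was 12.1, 14.8, 16.4, 14.2 and 13.1 TPM in wild type and 15.3, 15.5, 14.0, 12.9 and 14.0 TPM in null libraries. It was the lowest of the 10 genes in both naive groups and stood above Pycard and Nlrp1b after exposure. Nod2 rose by 2.45 (SE 0.10, adjusted p = 1.8e-14), or 5.48-fold, in wild type and by 2.44 (SE 0.09, adjusted p = 2.9e-15), or 5.42-fold, in null mice in edgeR.

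Nod1, on chr6:54900934-54949597 (minus strand), encodes the receptor for peptidoglycan fragments with meso-diaminopimelic acid, which are found mainly in Gram-negative walls. It was 38.8, 42.1, 40.8 and 41.8 TPM in wild type naive and 36.3, 34.5, 32.99, 35.1 and 32.8 TPM in null naive libraries. After exposure it was 31.1, 32.8, 35.4, 29.7 and 23.4 TPM in wild type and 26.0, 29.5, 25.2, 25.3 and 26.9 TPM in null libraries. Exposed libraries lay below naive ones of the same genotype, but the edgeR changes of -0.03 (SE 0.07, adjusted p = 0.75) in wild type mice and -0.01 (SE 0.07, adjusted p = 0.96) in null mice did not pass, while on log2(TPM + 1) they were -0.42 (limma adjusted p = 4.3e-04) and -0.36 (limma adjusted p = 1.0e-03).

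Ratios of TPM within a library do not depend on how libraries are scaled, and they are given as descriptions without a test. The ratio of Nlrp3 to Pycard, sensor to adaptor, had a mean of 1.90 in wild type naive, 1.66 in null naive, 77.7 in wild type exposed and 86.7 in null exposed libraries. The ratio of Casp4 to Casp1 had means of 0.368, 0.363, 2.38 and 2.33 in the same order, so the order of the 2 neighbouring caspase genes turned over. The ratio of Nod2 to Nod1 had means of 0.0806, 0.0977, 0.469 and 0.540, so Nod2 stayed below Nod1. In these 3 ratios every exposed library lay above every naive one of its genotype, and genotypes overlapped within each state. Pycard to Casp1 was lower in every exposed library in both genotypes, whereas Nod1 to Casp1 and Nlrc4 to Casp1 overlapped between states in both.

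**Figure D3:**
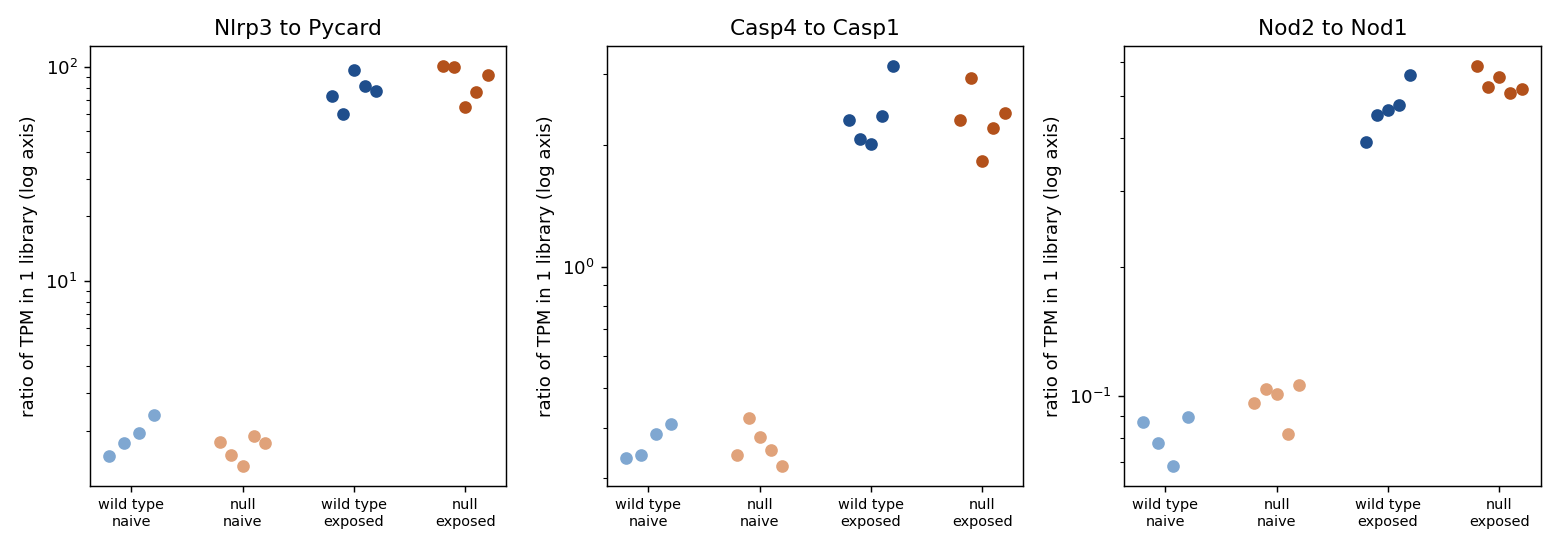
Ratio of TPM of 2 genes within each library (log axis, 1 point per library) for Nlrp3 to Pycard, Casp4 to Casp1 and Nod2 to Nod1 in the 4 groups. Exposed and naive libraries do not overlap in any of the 3 panels, and Casp4 to Casp1 passes from below 1 to above 1.

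By mean TPM the order was the same in both naive groups: Gsdmd, Casp1, Aim2, Nod1, Nlrp3, Casp4, Nlrc4, Pycard, Nlrp1b and Nod2. Neighbours whose libraries overlapped, in wild type naive mice, were Casp1 and Aim2, Nod1 and Nlrp3, Casp4 and Nlrc4, and Nlrc4 and Pycard, and in null naive mice Nod1 and Nlrp3, Nlrp3 and Casp4, Casp4 and Nlrc4, and Nlrc4 and Pycard. After exposure the order was Nlrp3, Casp4, Gsdmd, Casp1, Aim2, Nod1, Nlrc4, Nod2, Pycard and Nlrp1b in both genotypes. There the only neighbours in this order whose ranges met were Gsdmd and Casp1 in wild type. The summed level of the 10 genes had a mean of 467 ± 25.1 TPM in wild type naive, 447 ± 23.0 TPM in null naive, 1316 ± 108 TPM in wild type exposed and 1391 ± 179 TPM in null exposed libraries.

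A further 67 genes of these pathways were listed in 5 groups, of which 66 were matched and 61 were tested. In wild type mice 20 rose and 15 fell (57.4% called, beside 40.2% of all genes), and in null mice 19 rose and 22 fell (67.2%, beside 44.8%). On log2(TPM + 1), limma called 13 higher and 31 lower in wild type and 12 and 33 in null mice. More fell than rose in null mice on both scales, whereas in wild type more rose in edgeR and more fell on log2(TPM + 1). Of all genes, edgeR called 20.1% higher and 20.2% lower in wild type, and 21.4% and 23.4% in null mice. Limma called 11.0% and 41.0% in wild type, and 10.9% and 41.0% in null mice. The excess of falls on log2(TPM + 1), and of falls in null mice in edgeR, was thus shared by all genes.

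The list of 7 inflammasome substrates and antagonists also holds Il1a, and Il1rn, Il18bp and Il1r2, which oppose IL-1 or IL-18 and not the inflammasome. Of the list, 5 rose and 0 fell in wild type, and 5 rose and 1 fell in null mice. Shares of all genes were 20.1% and 20.2% in wild type, and 21.4% and 23.4% in null mice. The median change was 2.56 and 1.66, beside 0.02 for all genes. Limma called 4 higher and 2 lower on log2(TPM + 1) in wild type, and 4 and 1 in null mice, with a median of 1.22 and 0.74. It called 11.0% of all genes higher and 41.0% lower in wild type, and 10.9% and 41.0% in null mice. Il1b, the caspase-1 substrate, was 18.2 ± 4.73 and 23.7 ± 2.20 TPM in wild type and null naive libraries and 2864 ± 514 and 2363 ± 562 TPM in exposed ones. It rose by 7.68 (SE 0.23, adjusted p = 3.4e-16) in wild type mice and 7.00 (SE 0.20, adjusted p = 9.6e-17) in null mice. Il1a, an alarmin released from dying cells, rose by 6.83 (SE 0.20) and 6.37 (SE 0.17), and Il1rn, the receptor antagonist, by 3.34 (SE 0.12) and 3.86 (SE 0.12). Il18, the other caspase-1 substrate, had means of 499 and 888 TPM in naive and 516 and 938 TPM in exposed wild type and null libraries. Its edgeR change was 0.44 in each genotype (adjusted p = 1.5e-05 and 5.0e-06), whereas on log2(TPM + 1) it was 0.05 and 0.08 and did not pass (limma adjusted p = 0.59 and 0.34). Without wild type naive libraries 1, 2 and 3 together, which leaves 1 library in that group, its wild type edgeR change was 0.31.

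The list of NLRP3 licensing and activation mixes genes that promote NLRP3 with some that restrain it, such as Trim30a. Its counts thus give no direction of activation. Of its 15 tested genes, 4 rose and 7 fell in each genotype, with a median change of -0.13 and -0.15. On log2(TPM + 1) 1 was higher and 9 lower in each. Of all genes, edgeR called 20.1% higher and 20.2% lower in wild type, and 21.4% and 23.4% in null mice. Limma called 11.0% and 41.0% in wild type, and 10.9% and 41.0% in null mice. Gbp5, a guanylate-binding protein linked to NLRP3 assembly, rose by 1.89 (SE 0.27) and 2.37 (SE 0.25). Txnip, a thioredoxin-binding protein that can bind NLRP3, fell by 1.97 (SE 0.23) and 2.68 (SE 0.22), from 751 to 149 TPM in wild type and from 615 to 74.6 TPM in null mice. P2rx7, the receptor for extracellular ATP that opens potassium efflux, fell by 0.69 (SE 0.09) and 0.64 (SE 0.08), and the potassium channel gene Kcnk6 by 0.42 (SE 0.09) and 0.69 (SE 0.08).

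The list of other inflammasome sensors also holds Dpp8, Dpp9 and Nlrx1, which are not such sensors, so its counts are not of sensors alone. Of its 14 tested genes, 2 rose and 3 fell in wild type, and 1 rose and 6 fell in null mice. Shares of all genes were 20.1% and 20.2% in wild type, and 21.4% and 23.4% in null mice. On log2(TPM + 1) 2 were higher and 8 lower in wild type, and 0 and 8 in null mice, beside 11.0% and 41.0%, and 10.9% and 41.0%, of all genes. Nlrx1, a mitochondrial NLR protein, fell by 1.25 (SE 0.14) and 1.34 (SE 0.14). Naip6, a flagellin receptor that works with NLRC4 and has near-identical copies that may share its reads, fell by 0.65 (SE 0.14) and 0.74 (SE 0.13). Ifi204, a DNA-binding relative of Aim2, rose by 1.03 (SE 0.17) and 0.65 (SE 0.16), but in null mice its 0.29 on log2(TPM + 1) did not pass (limma adjusted p = 0.14), and in wild type edgeR gave 0.74 (adjusted p = 0.075) without wild type naive libraries 1, 2 and 3 together. Dpp8, a protease that restrains NLRP1, was -0.02 (adjusted p = 0.86) in wild type and fell by 0.29 (SE 0.07, adjusted p = 0.0016) in null mice, but on log2(TPM + 1) it was also called lower in wild type (-0.43, limma adjusted p = 6.6e-04). The difference between the genotypes was -0.27 (SE 0.10, adjusted p = 0.35) in the interaction test.

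Of the 5 other caspases and pore formers tested, 1 rose and 1 fell in each genotype. Shares of all genes were 20.1% and 20.2% in wild type, and 21.4% and 23.4% in null mice. Limma called 1 higher and 2 lower on log2(TPM + 1) in wild type, and 1 and 4 in null mice, beside 11.0% and 41.0%, and 10.9% and 41.0%, of all genes. Ninj1, which ruptures the membrane after pores form, was 7.70 ± 3.65 and 5.93 ± 1.06 TPM in naive and 47.9 ± 7.75 and 39.6 ± 4.87 TPM in exposed wild type and null libraries, and rose by 2.99 (SE 0.23, adjusted p = 9.6e-10) and 3.13 (SE 0.21, adjusted p = 8.2e-11). Casp8, the death-receptor caspase that can also process IL-1beta, fell by 0.31 (SE 0.07) in each genotype.

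In NOD signalling and muropeptide transport, 8 of 20 tested genes rose and 4 fell in wild type, and 8 rose and 7 fell in null mice. Shares of all genes were 20.1% and 20.2% in wild type, and 21.4% and 23.4% in null mice. On log2(TPM + 1) 5 were higher and 10 lower in wild type, and 6 and 11 in null mice, beside 11.0% and 41.0%, and 10.9% and 41.0%, of all genes. Tnfaip3, the deubiquitinase A20 that dampens NOD2 and NF-kappaB signalling, rose by 4.88 (SE 0.15) and 5.10 (SE 0.14), from 30.7 to 586 TPM in wild type and from 34.8 to 777 TPM in null mice. Birc3, a ubiquitin ligase of the RIPK2 complex, rose by 1.04 (SE 0.10) and 1.09 (SE 0.09), and Slc15a3, a lysosomal transporter that carries muropeptides to the cytosol, by 1.39 (SE 0.12) and 1.28 (SE 0.11). Ripk2, the kinase of NOD1 and NOD2, is outside the rule for named genes and was chosen after its values were seen. It rose by 0.67 (SE 0.11) and 0.55 (SE 0.11) in edgeR, with means of 14.0 and 17.1 TPM in wild type and 12.4 and 14.2 TPM in null naive and exposed libraries.

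**Figure D4:**
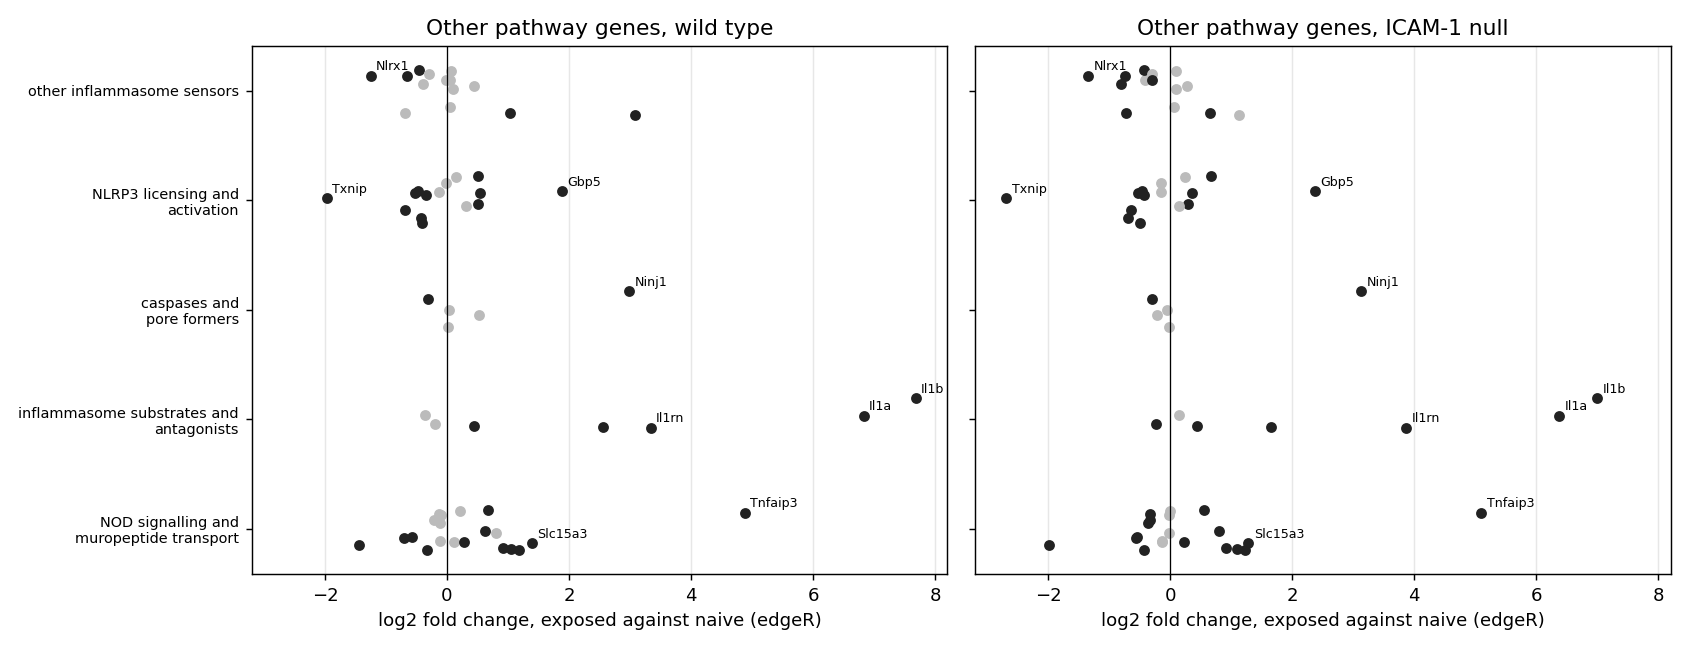
Log2 fold change (edgeR), exposed against naive, of the 61 tested pathway genes by list in wild type (left) and ICAM-1 null mice (right), black where the adjusted p is under 0.05 and grey where not, with vertical scatter within a list only to separate points. Il1b and Il1a lie farthest to the right and Txnip farthest to the left among the named genes in both panels.

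For the 3 genes that rose, the genes of most similar pattern were found as those with the smallest root mean square difference in log2(TPM + 1), each centred on its own mean, over the 19 libraries, among 11560 genes compared. Nlrp3 lay nearest to Nfkbid (0.249), Tnfaip3 (0.273) and Egr3 (0.335). Egr3 went from 0.121 to 23.0 TPM in wild type and from 0.276 to 20.6 TPM in null mice. With naive means under 1 TPM, its range is narrowed by the added 1, so its nearness depends on that. Nfkbid, an inhibitor of NF-kappaB, went from 16.4 to 538 TPM in wild type and from 14.7 to 557 TPM in null mice. Casp4 lay nearest to Ell2 (0.180), Pim1 (0.200) and Tnfaip2 (0.206), and Ell2, an elongation factor, went from 27.1 to 155 TPM in wild type and from 24.2 to 151 TPM in null mice. Nod2 lay nearest to Zeb2 (0.136), Etv3 (0.140) and Map2k3 (0.143), and Zeb2, a transcription factor, went from 55.6 to 183 TPM in wild type and from 50.0 to 179.96 TPM in null mice. The distances are larger for Nlrp3, whose values range most widely.

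Between genotypes, none of the 10 genes passed edgeR's test at an adjusted p under 0.05 in naive mice, where 6.86% of all genes were called, or in exposed mice, where 8.48% were. At an unadjusted p under 0.05 there were 1 in naive and 2 in exposed mice. The 95% intervals of null against wild type ran from -0.44 to 0.57 over the 10 genes in naive and from -0.53 to 0.46 in exposed mice. Nod1 had the lowest adjusted p in naive mice. Its null libraries, 32.8 to 36.3 TPM, all lay below its wild type libraries, 38.8 to 42.1 TPM, with a change of -0.18 (SE 0.07, adjusted p = 0.16), and 6.77% of all genes lay wholly lower. It passed when only the 2 groups were fitted (-0.20, adjusted p = 0.037). In exposed mice Nod1 overlapped, with a change of -0.15 (SE 0.07, adjusted p = 0.20).

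Aim2 had the lowest adjusted p in exposed mice, with means of 47.7 ± 3.65 TPM in wild type and 37.8 ± 5.28 TPM in null libraries and a change of -0.32 (SE 0.10, adjusted p = 0.064). Its ranges met only at the edge, 42.5 to 50.5 TPM against 30.6 to 43.1 TPM. It was called lower by DESeq2 (-0.32, adjusted p = 0.034), by limma on log2(TPM + 1) (-0.34, adjusted p = 0.037) and by edgeR without null naive 5 (-0.32, adjusted p = 0.029), null exposed 2 (-0.38, adjusted p = 0.030) or null exposed 3 (-0.35, adjusted p = 0.049). In naive mice Aim2 was -0.07 (SE 0.11, adjusted p = 0.85).

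The interaction, the null response minus the wild type response, was not called for any of the 10 genes, beside 0.332% of all genes, and 1 of the 10 had an unadjusted p under 0.05. That was Nlrp3, at 0.41 (SE 0.15, adjusted p = 0.34), with a 95% interval of 0.09 to 0.72. Its genotype differences had opposite signs, -0.21 (SE 0.11, adjusted p = 0.35) in naive and 0.20 (SE 0.10, adjusted p = 0.30) in exposed mice, and neither passed. Over the 10 genes the intervals of the interaction ran from -0.63 to 0.72.

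**Figure D5:**
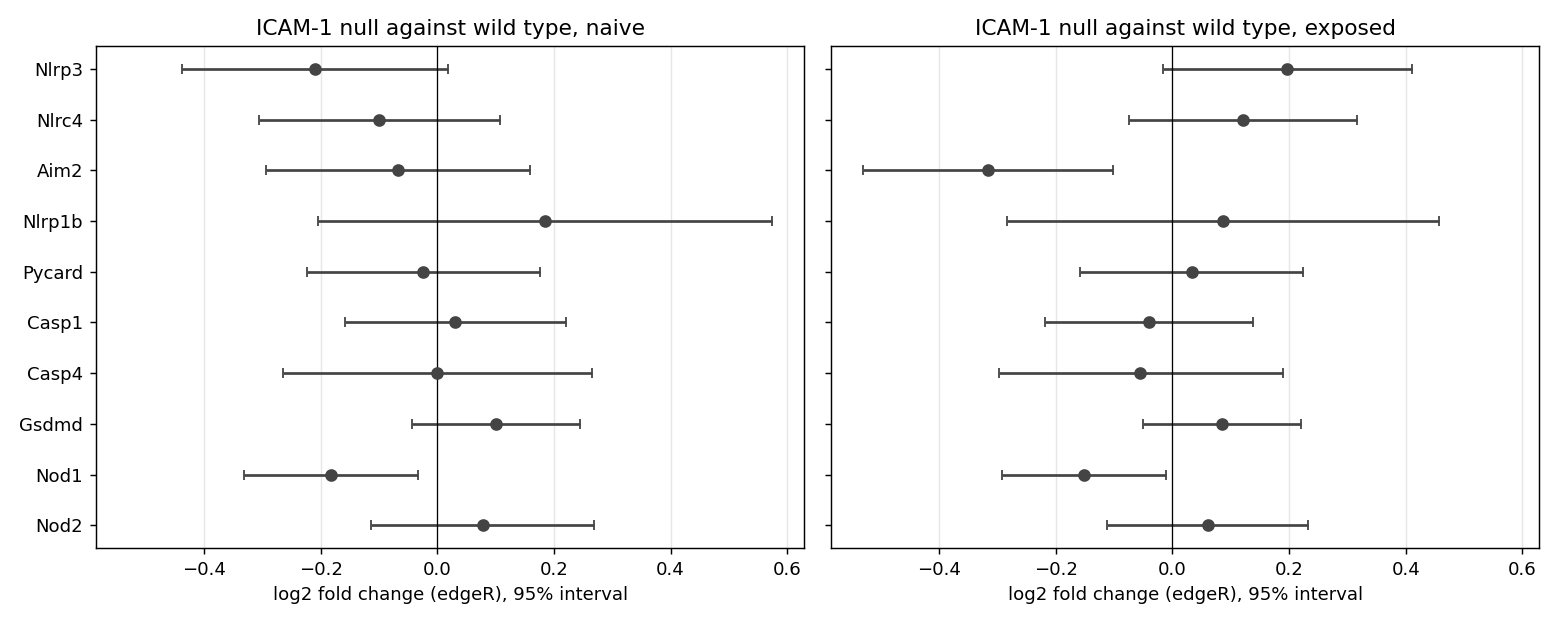
Log2 fold change (edgeR) of ICAM-1 null against wild type for the 10 genes, in naive (left) and exposed mice (right), with 95% intervals. No gene passed the adjusted threshold, and the intervals of Nod1 in both panels and of Aim2 on the right do not cross 0.

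Of the 61 tested pathway genes, 5 were higher and 1 lower in null naive mice and 5 and 1 in null exposed mice, or 9.84% called in each. Of all genes 4.31% were higher and 2.55% lower in naive mice, and 4.43% and 4.04% in exposed mice. Il18 was higher in null mice by 0.91 (SE 0.07, adjusted p = 4.0e-09) in naive and 0.91 (SE 0.06, adjusted p = 1.2e-09) in exposed mice. Its naive libraries were 474 to 539 TPM in wild type and 807 to 981 TPM in null mice, and its exposed ones 473 to 546 and 867 to 1063 TPM, with no overlap. Il18 lies at chr9:50466127-50493140, on the chromosome of Icam1 (chr9:20927281-20940113) and 29.5 Mb from it. Casp1 and Casp4 lie 15.6 Mb from Icam1 on the same chromosome and were not called between genotypes.

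Gsdme, a pore former cleaved by caspase-3, was higher in null mice by 0.77 (SE 0.13, adjusted p = 5.2e-04) in naive and 0.69 (SE 0.12, adjusted p = 7.7e-04) in exposed mice. Lrrc8a, a subunit of the volume-regulated anion channel, was higher by 0.71 (SE 0.14, adjusted p = 0.0015) and 0.55 (SE 0.13, adjusted p = 0.0075), the second of which did not pass on log2(TPM + 1) (0.42, limma adjusted p = 0.052). In naive mice Il1rn was lower in null mice by a change of -0.54 (SE 0.11, adjusted p = 0.0026), and Dpp8 was higher by 0.34 (SE 0.08, adjusted p = 0.0048) but not on log2(TPM + 1) (0.23, limma adjusted p = 0.17). Nlrp1a, at 0.88 (SE 0.26, adjusted p = 0.046), lost its call in 13 of 19 fits that left out 1 library, with adjusted p up to 0.16. In exposed mice Txnip was lower (-0.94, SE 0.21, adjusted p = 0.0060) and Tnfaip3 was higher (0.48, SE 0.12, adjusted p = 0.010). Gbp5, at 0.83 in exposed mice (SE 0.24, adjusted p = 0.031), lost its call in 5 of 19 fits that left out 1 library, with adjusted p up to 0.12. On log2(TPM + 1) Gbp5 did not pass either (0.66, limma adjusted p = 0.09). Without wild type naive libraries 1, 2 and 3 together, the naive calls of Dpp8, Nlrp1a, Lrrc8a, Gsdme and Il1rn were lost, with adjusted p of 0.096 to 0.72, while their changes were 0.29, 0.93, 0.63, 0.60 and -0.65 in that order.

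Markers of the labelled cell type were present throughout. All 15 alveolar macrophage markers were matched, none was under 1 TPM, and they summed to 26696 to 30584 TPM in wild type naive, 31472 to 34813 TPM in null naive, 29054 to 34843 TPM in wild type exposed and 32748 to 37445 TPM in null exposed libraries. The 12 neutrophil markers summed to 36.2 to 60.8, 69.2 to 88.9, 71.0 to 99.8 and 76.3 to 125 TPM in the same order, 7 of them were under 1 TPM in each group, and the granule gene Elane was at 0 in all libraries. The 10 monocyte and interstitial macrophage markers summed to 41.9 to 64.2, 37.0 to 51.8, 48.6 to 75.3 and 41.9 to 56.3 TPM, and the 7 dendritic cell markers to 7.79 to 16.2, 7.04 to 12.9, 22.7 to 38.8 and 14.3 to 29.1 TPM. The 15 airway and alveolar epithelial markers summed to 678 to 872, 566 to 802, 1354 to 3693 and 837 to 1454 TPM, and the part of these lists in the changes of the 10 genes was not tested. The dendritic cell and epithelial sums were higher in every exposed library than in every naive one of the same genotype, as was the neutrophil sum in wild type. In the dendritic cell list, Ccr7 and Zbtb46 were higher in every exposed library of each genotype. Flt3 and Xcr1 were so only in wild type and Clec9a only in null mice, while Cd209a and Siglech overlapped in both genotypes. Ccr7 was 3.01 to 7.19 TPM in wild type naive and 15.03 to 27.01 TPM in wild type exposed libraries. In the neutrophil list, Ltf and S100a9 were higher in every wild type exposed library, whereas S100a8, Ly6g, Cxcr2 and Mmp8 overlapped. The epithelial list did not move as 1: the secretoglobin Scgb1a1 was 197 to 284 TPM in wild type naive and 707 to 2525 TPM in wild type exposed libraries, and 165 to 264 and 365 to 516 TPM in null ones, whereas Epcam (70.6 to 96.3 and 46.8 to 62.6 TPM in wild type, 141 to 211 and 92.2 to 125 TPM in null) and Cdh1 were lower in every exposed library of each genotype. Nor did the alveolar macrophage list. In each genotype Siglecf and Ear2 were lower in every exposed library, Plet1, Car4 and Fabp4 were higher, and Pparg, Chil3 and Itgax overlapped. In wild type, Siglecf was 295 to 309 TPM in naive and 153 to 208 TPM in exposed libraries, and Plet1 1186 to 1220 and 4101 to 5586 TPM. Marco was 417 to 545 TPM in wild type naive and 1511 to 2071 TPM in null naive libraries. Chil3 alone held 12049 to 18659.5 TPM. The 11 T and NK cell markers summed to 678 to 776, 398 to 478, 553 to 667 and 331 to 394 TPM, lower in every null library of each state. Cd2 held most of that gap. It was 460.1 to 519.5 TPM in wild type naive and 199 to 257 TPM in null naive libraries. In exposed libraries it was 297 to 339 TPM in wild type and 144 to 196 TPM in null mice. Cd3e was also lower in every null naive library (4.199 to 6.07 against 6.37 to 7.28 TPM), but overlapped in exposed mice. Cd3d, Cd3g, Cd8a, Trac, Gzma and Prf1 overlapped between genotypes in each state, Prf1 only at the edge in naive mice. Klrb1c was higher in every null naive library (2.13 to 3.01 against 0.453 to 1.72 TPM). The 8 erythroid and platelet markers summed to 138 to 413, 100.5 to 355, 372 to 2401 and 133 to 353 TPM. Their part in the differences between genotypes was not tested either. Sums were at most 5.04 TPM over 6 B cell markers and 0.897 TPM over 6 eosinophil and mast cell markers, and 38.1 to 54.7 TPM over 8 markers of endothelium and stroma.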

How the data were processed

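RNA of 19 lavage pellets was sequenced after poly(A) selection as pairs of 150 bases, per the labels' protocols. The authors deposited estimated counts, as whole numbers not scaled for depth, and TPM, scaled to a common sum, for 56941 genes. Per the submitters' processing notes these came from STAR and StringTie version 2 on build GRCm39. Counting and strand settings were not given in the sources used here. Reads of overlapping or near-identical genes may therefore be shared.

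The estimated counts were tested with edgeR 4.0.16 (R 4.3.3), quasi-likelihood F test, two-sided, all 19 libraries in 1 model of 4 group means, TMM scaling, filterByExpr (minimum count 10, total 15), 20501 genes and 5 comparisons, with Benjamini-Hochberg adjustment over these genes within each comparison. Standard errors and 95% intervals come from the same fit. The script was tested on simulated counts. Alternatives were DESeq2 1.42.0 and its size factors, no filter, counts divided by 4, limma 3.58.1 on log2(TPM + 1) and log2(TPM + 0.1), only the groups compared, the replicate number as a block, each library left out, and the 3 wild type naive libraries of lowest total left out together. Named pathway genes are the 3 of smallest adjusted p in each of 5 lists and each comparison among those called. Members and lists were chosen with earlier results of these data known. Promoter sequences are RefSeq's, on GRCm38.p6, matched by symbol.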

Additional observations from a re-analysis of the deposited data

Results flagged for a closer look

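In each of the 40 sets formed by 1 gene and 1 group, the highest and the lowest library were checked with Dixon's ratio, and 3 sets had a library far from the others, where chance gives about 1 in 20. Aim2 in null naive mice had its lowest value, 50.1 TPM, in library 5, where the others were 63.8 to 69.0 TPM. Gsdmd in wild type naive mice had its highest value, 159.8 TPM, in library 4, the most deeply sequenced of the 19, where the others were 141 to 144 TPM. Nlrp1b in wild type exposed mice had its highest value, 7.93 TPM, in library 2, where the others were 5.67 to 6.24 TPM.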

How the results depend on the processing

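Over 28 alternative settings the 10 genes gave 1390 changes to compare, 950 of them from leaving out 1 library. Of the 1390, 1355 kept their direction and side of the threshold or were not called in either fit. The others were 7 that lost a call, 24 that gained one and 4 that turned direction. Between genotypes and in the interaction none of the 10 genes was called in the main fit, so no call could be lost there. Direction was compared only for changes called in at least 1 of the fits, and all 4 that turned were Nlrc4 on exposure. On log2(TPM + 1) Nlrc4 was -0.321 in wild type and -0.101 in null mice, and on log2(TPM + 0.1) -0.334 and -0.106. Changes called in neither fit could also change sign, as Casp1 did on log2(TPM + 1), at -0.140 in wild type and -0.197 in null mice. The number of the 10 genes called between genotypes went from 0 to 1 in naive mice (Nod1) with only the 2 groups fitted, and from 0 to 1 in exposed mice (Aim2) with DESeq2, with counts divided by 4 and with limma at either pseudocount. It was 0 to 1 in exposed mice over the fits that left out 1 library. With the replicate number as a block, 7 of the 10 were called in each genotype on exposure and 0 between genotypes or in the interaction. The added call, Casp1 in wild type (0.19, adjusted p = 0.037), and the loss of Gbp5 between genotypes in exposed mice (0.82, adjusted p = 0.060) came with numbers that were not taken as pairs: over 27 pairs, deviations of same-numbered libraries correlated at -0.048 to 0.073, and 4 of 19 libraries correlated best with one of their own number. Leaving out wild type naive libraries 1, 2 and 3 leaves 1 library there, assumed to vary like the other groups, and genes called went from 8245 to 4253 for wild type exposure, from 1406 to 321 between naive genotypes and from 68 to 10 in the interaction. The interaction gave 38 genes with no filter, 230 with DESeq2 and 110 with limma on log2(TPM + 1), and 34 to 45 without any 1 of wild type naive 1, 2 or 3, null naive 1, 2 or 4, wild type exposed 4 or null exposed 2. The cause of these shifts was not tested. Without a filter, Nlrc4 in null mice was 0.23 (adjusted p = 0.078).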
